A study of Mus musculus with 2 samples.

Results

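A pair of osteoblast-lineage cell classes from mouse bone marrow stroma, which the authors named Pro-osteoblast and Pre-osteoblast/chondrocyte, were compared across all genes. The members were the cells that passed the authors' filter and carried 1 of those 2 class names, 438 of 2847 passing cells. Pro-osteoblast held 42 cells of the sample Stroma1 and 305 of Stroma2, 347 in all, and Pre-osteoblast/chondrocyte held 25 and 66, 91 in all. The counts of the cells were summed per class and sample, which gave 4 sums, 2 a side, and the sample was kept as a block. Both samples came from the same kind of animal, with the strain label C56BL/6 and an age of 8 to 16 weeks, and the labels name no altered genotype and no treatment. Cells were freed from crushed leg and hip bones with collagenase and dispase, depleted by sorting of cells with CD45, Ter119 or CD31 on their surface, and measured in inDrops droplets. Stroma1 was sequenced as libraries 1.1 and 1.2, and Stroma2 as libraries 2.1, 2.2 and 2.3. Nothing in the labels ties the samples to separate animals, so the p-values do not measure a spread between animals. With sample as a block, they weigh the class difference against how far it varied between these 2 samples, pooled over genes. The class names were made by the authors from the same cells and may rest on the genes compared here, so the differences describe the classes and are not independent evidence that they differ.

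Osteoblasts arise from marrow stromal cells that switch on the transcription factors Runx2 and then Sp7, and they build bone by secreting type I collagen and filling it with mineral. Early cells of the lineage carry alkaline phosphatase and osteopontin, while osteocalcin is a product of mature osteoblasts. Mmp13, a collagenase, is known from hypertrophic chondrocytes and from osteoblast-lineage cells, where it cuts fibrillar collagen, and stromal cells of the marrow also secrete the factors that hold blood stem cells in place.

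Osteocalcin, osteopontin and collagenase 3 are textbook genes with a Runx element close to their start, and they fell on opposite sides of this comparison. Osteocalcin was higher in Pro-osteoblast, and the other two were lower. Their proximal promoters, positions -150 to -1 counted from the RefSeq start on build GRCm38.p6, are shown because the same short motif stands at a similar distance in all 3. Capitals mark the Runx core ACCACA and the AP-1 motif TGACTCA.
Bglap (osteocalcin), chr3:88384467-88384616, minus strand: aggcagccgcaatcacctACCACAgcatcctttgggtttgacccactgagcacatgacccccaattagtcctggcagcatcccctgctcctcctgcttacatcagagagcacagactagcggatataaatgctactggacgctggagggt
Spp1 (osteopontin), chr5:104434961-104435110, plus strand: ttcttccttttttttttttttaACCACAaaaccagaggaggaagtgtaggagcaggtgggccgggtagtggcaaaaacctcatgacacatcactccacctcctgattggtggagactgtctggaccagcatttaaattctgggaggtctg
Mmp13 (collagenase 3), chr9:7272364-7272513, plus strand: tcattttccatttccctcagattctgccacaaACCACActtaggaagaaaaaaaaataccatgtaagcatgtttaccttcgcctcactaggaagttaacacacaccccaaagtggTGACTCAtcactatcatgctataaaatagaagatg
ACCACA began at position -132 in Bglap, -128 in Spp1 (1 of the 2 starts listed) and -118 in Mmp13, and TGACTCA began at position -35 in Mmp13. On either strand of the 250 bases before the start, ACCACA was found in 14.0% of 32851 promoters listed, and TGACTCA in 4.46%. Among genes called higher in Pro-osteoblast below, 39 of 301 with a listed promoter (13.0%) held ACCACA, against 41 of 273 called lower (15.02%) and 188 of 1652 tested (11.4%). The AP-1 motif stood in 11 of the 301 and in 12 of the 273. The 14.0% and 4.46% count promoters, whereas the later counts are of genes with the motif at any listed start. Higher and lower genes held ACCACA in 13.0% and 15.02%, against 11.4% of genes tested. They held TGACTCA in 3.65% and 4.40%, against 3.81% of genes tested. A match of letters is not evidence of binding.

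The classes differed in depth and in RNA content before any gene was compared. Pro-osteoblast cells had a median of 4422 counts in Stroma1 and 4201 in Stroma2, and Pre-osteoblast/chondrocyte cells 2107 and 1440.5. The 4 sums held 187228 and 1450797 counts for Pro-osteoblast, and 55218 and 119724 for Pre-osteoblast/chondrocyte. The median mitochondrial share was lower in Pro-osteoblast, at 4.35% and 3.47% against 8.52% and 6.25%. Many cell barcodes recurred between libraries of a sample: 18 of 42 and 176 of 305 Pro-osteoblast cells shared a barcode with another library, against 0 of 25 and 25 of 66 Pre-osteoblast/chondrocyte cells. Of the barcodes found in several libraries, 9 of 9 in Stroma1 and 82 of 91 in Stroma2 had all copies in a single class. Keeping each barcode once gave 334 higher and 305 lower genes, against the 401 and 364 reported below. On the authors' own scales, the median probability of an osteoblast fate was 0.411 and 0.412 in Pro-osteoblast and 0.334 and 0.333 in Pre-osteoblast/chondrocyte. All Pro-osteoblast cells had an osteoblast pseudotime, the authors' rank along the path, with medians of 0.896 and 0.911, whereas only 5 of 25 and 21 of 66 Pre-osteoblast/chondrocyte cells had one, with medians of 0.813 and 0.814.

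The class names were checked against markers of osteoblasts and chondrocytes. Of the 7 osteoblast markers, Col1a1, Ibsp, Alpl, Sp7, Dmp1 and Bglap2 were detected in all 4 sums, but the Pre-osteoblast/chondrocyte cells held only 0 and 16 counts of Bglap and 1 and 12 of Bglap2. Detection of Ibsp does not set these classes apart, since the stromal class MSC held it at 5629 and 5962 CPM of all counts, above the 4817 and 4393 of Pre-osteoblast/chondrocyte. Of the 7 chondrocyte markers in the table, Acan, Col9a1, Matn3 and Hapln1, which encode cartilage matrix proteins, had 0 counts in the Pre-osteoblast/chondrocyte cells of both samples. Col2a1, the main collagen of cartilage, had 15 and 5 counts there, or 272 and 41.8 CPM of all counts, above the 4.11 and 6.82 of MSC and below the 347 and 745 of Pro-osteoblast. Sox9, the regulator of cartilage fate, had 3 and 4 counts there, and Comp, another cartilage matrix gene, had 1 and 4. With 25 and 66 cells of low depth, low levels of these genes could not have been detected. As CPM of all counts, markers of endothelium (0 and 25.1, summed over 6 genes), neutrophils (0 and 0, over 8 genes), macrophages (36.2 and 8.35, over 7 genes) and red cells (36.2 and 16.7, over 7 genes) were at or near 0 in Pre-osteoblast/chondrocyte. They were also low in Pro-osteoblast, where the highest of these sums was 32.0 CPM. Other marker sets were higher in Pre-osteoblast/chondrocyte. The 6 tendon or fibroblast markers summed to 90.6 and 134 CPM against 10.7 and 19.3 in Pro-osteoblast, most of it S100a4. The 4 Schwann or glia markers summed to 90.6 and 125 against 16.0 and 2.76, most of it S100b, with Sox10 at 0. The 7 B lineage markers summed to 290 and 217 against 90.8 and 75.8, with 6 and 5 of the 7 at 0 in Pre-osteoblast/chondrocyte. Nearly all of that sum was Ebf1, at 290 and 209 CPM, which MSC held at 616 and 665. Apart from Ebf1, only Vpreb3 had a count in Pre-osteoblast/chondrocyte, 1 in Stroma2. Igll1 and Vpreb1 had 0 counts in that class but were found in Pro-osteoblast in both samples. The part of these marker sets in the results below was not tested.

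The test, edgeR's quasi-likelihood test on the 4 sums with an adjusted p under 0.05, covered 2116 genes with enough counts. It called 401 genes higher in Pro-osteoblast (19.0% of those tested) and 364 lower (17.2%). Of the 765 genes called, 762 had the same direction in both samples, and 356 were over 2-fold higher and 340 over 2-fold lower. The 4 sums leave 1 residual degree of freedom per gene, and the spread was in effect shared by all genes. DESeq2, which estimates spread differently, called 149 higher (7.04%) and 116 lower (5.48%), 12.5% in all and all of them also called in the same direction by edgeR. Taken alone, Stroma1 gave a fold change farther from the fitted one than the SD of the 2 samples' values in 44 of 121 genes named here and called, and Stroma2 in none, so the fitted values follow Stroma2. Leaving out library 1.2 left 223 higher and 210 lower, and leaving out library 1.1 left 255 and 283. Levels below are CPM (counts scaled to a common total) after TMM scaling, which sets the bulk of genes level between the classes, and are given for Stroma1 and then Stroma2. On that scale both Pro-osteoblast sums lay above both others in 741 of the 2116 genes (35.0%) and below both in 676 (31.9%). Classes that do not overlap are therefore common among all genes.

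**Figure D1:**
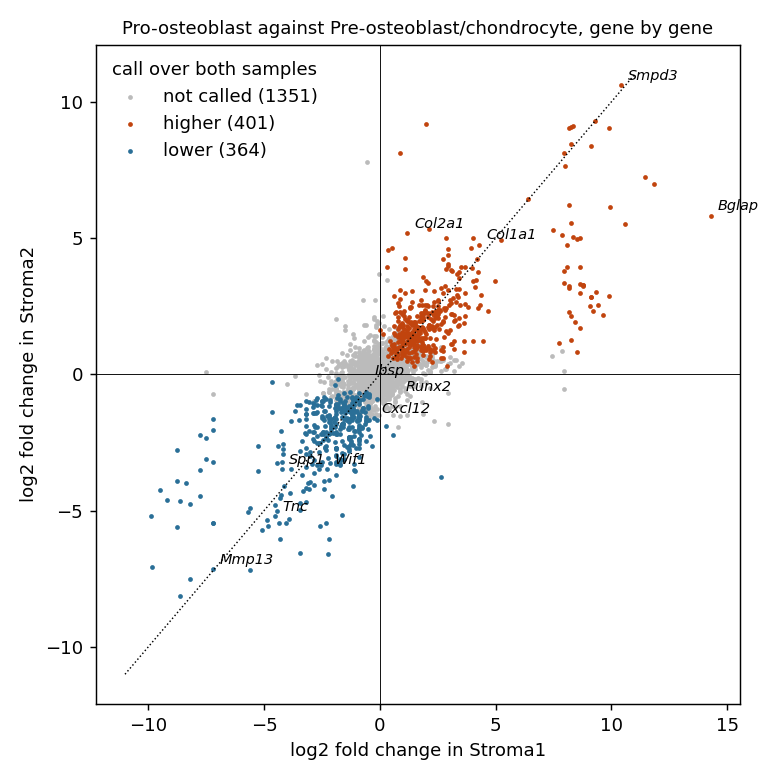
Log2 fold change of each of the 2116 tested genes, Pro-osteoblast over Pre-osteoblast/chondrocyte, in Stroma1 (x axis) and Stroma2 (y axis); colours give the call over both samples and the dotted line marks equal values. Called genes lie in the upper right and lower left parts with 3 exceptions, and the vertical bands at the left and right edges are genes with 0 counts in 1 of the Stroma1 sums, whose fitted values depend on the prior count.

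Type I collagen, the main protein of bone, made up the largest difference in transcript share. The paired chains Col1a1 (chr11:94936224-94953042) and Col1a2 (chr6:4504814-4541544) together took 39.0% and 42.7% of all counts in Pro-osteoblast, against 4.02% and 3.36% in Pre-osteoblast/chondrocyte. Col1a1 stood at 313648 and 353862 CPM in Pro-osteoblast and at 15937 and 13093 in Pre-osteoblast/chondrocyte. Both Pro-osteoblast values lay far above both others, and the fitted difference was 23.1-fold (log2 4.53, SE 0.37, edgeR adjusted p = 4.9e-31). For Col1a2 the levels were 293954 and 393895 against 18986 and 15636, a 19.8-fold difference (log2 4.31, SE 0.37). Across the 5 libraries, the share of Col1a1 ran from 19.2% to 21.0% in Pro-osteoblast and from 1.10% to 2.59% in Pre-osteoblast/chondrocyte, without overlap. In Pre-osteoblast/chondrocyte the transcript was uneven between cells: 1 of 25 cells carried 44.6% of the Col1a1 counts of Stroma1 and 1 of 66 carried 13.5% of those of Stroma2. In Pro-osteoblast every cell had a Col1a1 count, and the fullest carried 6.56% in Stroma1 (42 cells) and 0.933% in Stroma2 (305 cells).

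**Figure D2:**
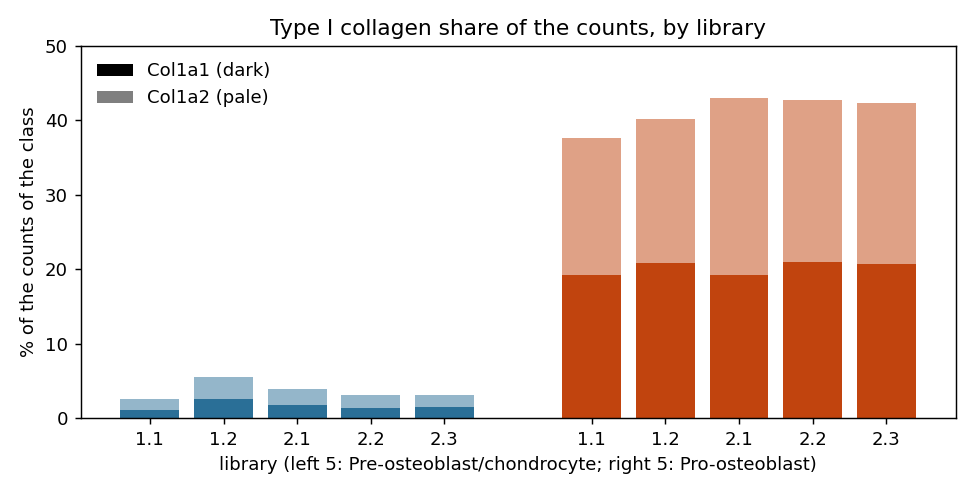
Percent of all counts of a class that were Col1a1 (dark) and Col1a2 (pale), in each of the 5 libraries; left, Pre-osteoblast/chondrocyte, right, Pro-osteoblast. The Pro-osteoblast bars stand near 40% in all libraries, and no Pre-osteoblast/chondrocyte bar reaches 6%.

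Because these 2 genes take so much of the Pro-osteoblast counts, the scale decides how the rest is read. With plain totals in place of TMM, the median log2 fold change of all tested genes fell by 1.12, and 130 genes (6.14%) were called higher against 1059 (50.0%) lower, 56.2% in all. When Col1a1 and Col1a2 were removed before any total was taken, 1996 genes could be tested, 356 were higher (17.8%) and 312 lower (15.6%), 33.5% in all, and the median shift from the first fit was -0.19. On plain totals without the 2 genes, an alternative chosen after the data were seen, 314 were higher and 354 lower. Of the 765 genes called at first, 698 were tested again without type I collagen and 605 were called in the same direction. The sums cannot tell a gene's lower share from a larger amount of collagen RNA per cell, and a change below is relative to the bulk of genes.

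**Figure D3:**
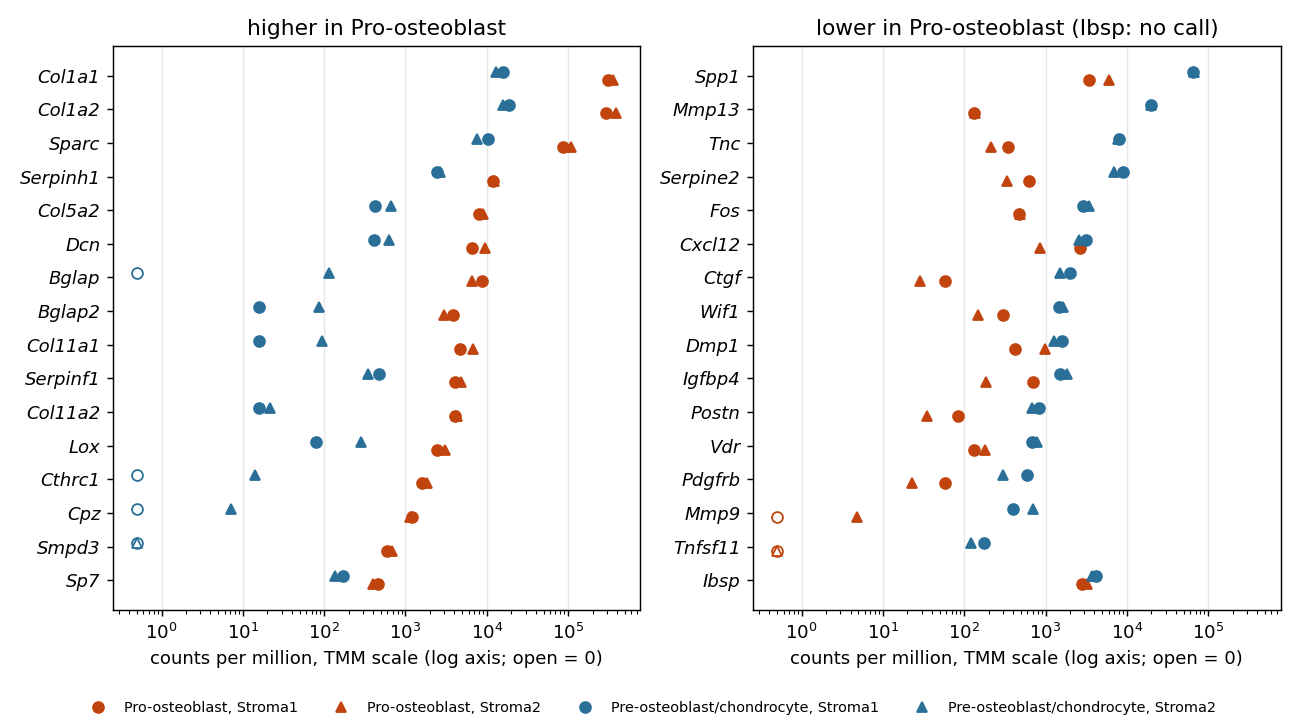
Level of 32 genes in the 4 sums, as CPM after TMM scaling on a log axis; circles are Stroma1, triangles Stroma2, open symbols at the left mark 0 counts. The classes do not overlap for any gene shown except Cxcl12, whose Stroma1 Pro-osteoblast value (2630) lies above the Stroma2 value of the other class (2564). Of all 2116 genes tested, 35.0% were likewise apart with Pro-osteoblast higher and 31.9% with it lower.

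The other fibrillar collagens went the same way as type I. Of 15 collagen chain genes tested, Col1a1 and Col1a2 among them, 11 were higher in Pro-osteoblast and 4 lower. These shares were 73.3% and 26.7%, beside 19.0% and 17.2% over all genes. The median log2 fold change was 3.19 against 0.03 over all genes tested. Col5a2, a chain of the type V collagen that starts collagen fibrils, stood at 7982 and 9078 CPM in Pro-osteoblast and 424 and 664 in Pre-osteoblast/chondrocyte. The classes were well apart, by 15.5-fold (log2 3.95, SE 0.24). Col5a1, its partner chain, was higher by log2 2.43 (SE 0.23). Col11a1 and Col11a2, chains of the related type XI collagen that is best known from cartilage, were near absent from Pre-osteoblast/chondrocyte. Col11a2 was at 4095 and 4340 CPM in Pro-osteoblast against 15.7 and 21.4, from 4 counts in all of the latter, a log2 difference of 7.73 (SE 0.38). For Col11a1 the levels were 4694 and 6874 against 15.7 and 92.9 (log2 6.53, SE 0.32). Col24a1, a fibrillar collagen of bone, had 204 counts in Pro-osteoblast and 0 in Pre-osteoblast/chondrocyte, at least 14.6-fold higher. Col15a1, a basement membrane zone collagen, had 149 and 0 counts, at least 10.7-fold higher. These bounds set the 0 at 3 counts over the class and cover counting error only, and DESeq2 did not call either gene. The 4 chains that fell were Col4a1, Col6a1, Col6a2 and Col8a1, which belong to non-fibrillar collagens and are named because they were the exceptions. The widest of these was Col8a1, at 24.97 and 8.45 CPM against 424 and 386 (log2 -5.03, SE 0.51). Col3a1, a fibrillar chain of soft tissue, was higher by log2 1.12 (SE 0.37, adjusted p = 0.0081), a call lost in 9 of the alternatives, among them the fits without type I collagen, without library 1.1 and with DESeq2. It rested on few cells, since 4 of 42 cells carried 87.5% of its Stroma1 Pro-osteoblast counts.

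Genes that modify, fold and crosslink collagen rose with it. Of 27 tested, 19 were higher and 2 lower (70.4% and 7.41%, beside 19.0% and 17.2% over all genes). The median log2 fold change was 1.95. Serpinh1, the collagen chaperone of the endoplasmic reticulum, was at 11994 and 12363 CPM in Pro-osteoblast and 2468 and 2643 in Pre-osteoblast/chondrocyte, 4.76-fold apart (log2 2.25, SE 0.22). Lox, which oxidises lysines so that fibrils crosslink, was at 2455 and 3097 against 78.6 and 286 (log2 3.82, SE 0.26). Both genes separated the classes in both samples. P3h1 and Plod2, which hydroxylate proline and lysine, were higher by log2 3.50 (SE 0.42) and 2.34 (SE 0.29), and the prolyl isomerase gene Fkbp9 by 3.23 (SE 0.32). The exceptions were Loxl1, a relative of Lox tied to elastic fibres, with 41.6 and 8.45 CPM against 456 and 279 (log2 -4.37, SE 0.51), and Tmem38b, an ion channel gene of the endoplasmic reticulum (log2 -2.18, SE 0.50), which DESeq2 did not call. Loxl1 thus moved against Lox, and its level was low in Pro-osteoblast in both samples. With plain totals the list had 11 higher and 4 lower genes, and with DESeq2 13 and 1.

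The general secretory pathway was also higher, by smaller steps. Of 49 genes tested for import into the endoplasmic reticulum, vesicle traffic and the unfolded protein response, 30 were higher and 2 lower. These shares were 61.2% and 4.08%, beside 19.0% and 17.2% over all genes, and the median was 1.23. Ostc, a subunit of the enzyme that adds sugar chains, was at 1040 and 970 CPM against 110 and 243 (log2 2.38, SE 0.28). Sec31a, part of the COPII coat that carries cargo out of the endoplasmic reticulum, was at 732 and 862 against 78.6 and 221 (log2 2.29, SE 0.29). The cargo receptors Lman1 (2.38, SE 0.32) and Surf4 (1.86, SE 0.27), the retrieval receptor Kdelr2 (2.10, SE 0.27) and the translocon protein gene Ssr4 (2.11, SE 0.28) rose by similar log2 steps. The 2 genes that fell were Calr, a calcium-binding chaperone (log2 -1.22, SE 0.23), and Atf6, a stress sensor (log2 -1.98, SE 0.52), which DESeq2 did not call. The stress chaperone genes Hspa5 and Hsp90b1 were tested and not called, except as lower on plain totals (log2 -1.14 and -1.13). This list depends on the scale more than those above: with plain totals 8 genes were higher and 9 lower, and with DESeq2 14 and 1.

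Genes of bone matrix and mineral split between the classes. Of 16 tested, 8 were higher in Pro-osteoblast, 6 were lower and 2 were not called (median log2 fold change 1.16). The higher and lower shares were 50% and 37.5%, beside 19.0% and 17.2% over all genes. Osteocalcin marked Pro-osteoblast. Bglap (chr3:88383501-88384464) stood at 8648 and 6513 CPM in Pro-osteoblast and at 0 and 114 in Pre-osteoblast/chondrocyte. Its 6435 counts in the former faced 16 in the latter, all in Stroma2, and the fitted difference was 95.6-fold (log2 6.58, SE 0.31, edgeR adjusted p = 8.2e-86). The neighbouring copies Bglap2, at 3821 and 2962 against 15.7 and 85.7, and Bglap3, at 666 and 676 against 0 and 14.3, showed the same separation. The reference transcripts of the 3 copies are 96.4% to 98.9% identical where they align, so how reads were shared among them is uncertain. Bglap3 had 2 counts in Pre-osteoblast/chondrocyte, a ratio of 68.7 with a counting interval from 18.9 to 568.

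Other genes of late matrix rose with osteocalcin. Smpd3, a sphingomyelinase needed for normal mineralization, had 637 counts in Pro-osteoblast and 0 in the other class, at least 45.6-fold higher, with levels of 591 and 683 CPM; DESeq2 did not call it. Cthrc1, a secreted collagen triple helix repeat protein, was at 1606 and 1860 against 0 and 14.3. It had 2 counts in Pre-osteoblast/chondrocyte, a ratio of 186 with a counting interval from 51.4 to 1538. Both genes were close to or at 0 in Pre-osteoblast/chondrocyte and present in both Pro-osteoblast sums. Both are among the 15 highest called, a choice that favours such values. Sparc, or osteonectin, a mineral- and collagen-binding protein, was at 85732 and 109140 against 10263 and 7657, 10.9-fold apart (log2 3.45, SE 0.30). Phex, a peptidase of phosphate balance, was at 216 and 336 against 173 and 21.4. Its 2 Pre-osteoblast/chondrocyte values differed widely, and its call (log2 1.98, SE 0.45) was lost with plain totals, DESeq2, without library 2.2 and with each barcode once.

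Osteopontin was among the 6 bone matrix genes that were lower in Pro-osteoblast. Spp1 (chr5:104435118-104441050), a phosphorylated glycoprotein that binds mineral and cells, stood at 64281 and 66924 CPM in Pre-osteoblast/chondrocyte and at 3413 and 6045 in Pro-osteoblast. The sums of Pre-osteoblast/chondrocyte lay close together, those of Pro-osteoblast less so, and the classes did not overlap, at 14.3-fold apart (log2 -3.84, SE 0.28, adjusted p = 1.3e-38). Enpp1, which makes the mineralization inhibitor pyrophosphate, was at 409 and 321 against 0 and 8.45 (log2 -5.52, SE 0.58). Dmp1, a matrix phosphoprotein best known from osteocytes, was at 1603 and 1286 in Pre-osteoblast/chondrocyte and 416 and 979 in Pro-osteoblast. The groups did not overlap (log2 -1.01, SE 0.22, adjusted p = 2.5e-05), but the call was lost with DESeq2 and in the fit with no replicate block. Ibsp, bone sialoprotein, was at 2847 and 3203 in Pro-osteoblast and 4181 and 3757 in Pre-osteoblast/chondrocyte, a difference that did not pass the test (log2 -0.38, SE 0.20, adjusted p = 0.12). It did pass in the repeat without type I collagen (log2 -0.57, adjusted p = 0.0080), on plain totals both with type I collagen (log2 -1.48, adjusted p = 0.00027) and without it, and without library 2.2 (adjusted p = 0.043). Alpl, alkaline phosphatase, was at 732 and 811 against 566 and 650 and was not called (log2 0.34, SE 0.24, adjusted p = 0.27). On plain totals its difference turned to -0.77 with an adjusted p of 0.024.

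Several transcription factors of the osteoblast lineage were higher in Pro-osteoblast, but Runx2 was not. Of 10 tested, 6 were higher and 1 lower (60% and 10%, beside 19.0% and 17.2% over all genes), with a median of 1.51. On plain totals, however, 2 were higher and 2 lower, and with DESeq2 3 and none. Sp7, or osterix, was at 458 and 400 CPM in Pro-osteoblast and 173 and 136 in Pre-osteoblast/chondrocyte, 2.82-fold apart (log2 1.49, SE 0.33). Creb3l1, which drives secretory and collagen genes in osteoblasts, was at 832 and 859 against 94.3 and 186 (log2 2.49, SE 0.30). Twist1, a basic helix-loop-helix factor known to restrain Runx2, was at 524 and 461 against 31.4 and 42.9 (log2 3.61, SE 0.43). None of the 3 overlapped between the classes, and 35.0% of all genes tested were apart in that direction. Mef2c (log2 1.52, SE 0.31) and Cbfb (1.61, SE 0.38), the partner of Runx proteins, were also higher. Runx2 itself was at 358 and 313 in Pro-osteoblast and 204 and 543 in Pre-osteoblast/chondrocyte. The 2 samples pointed in opposite directions and the test made no call (log2 -0.29, SE 0.28, adjusted p = 0.47), although on plain totals the value was -1.37 with an adjusted p of 0.022. Runx1, the 1 factor that fell, differed by log2 -1.15 (SE 0.43, adjusted p = 0.022), a call lost in 5 alternatives, among them DESeq2 and the fits without library 1.2, 2.1 or 2.3. The calls of Sp7, Mef2c and Cbfb were lost on plain totals and with DESeq2.

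Small leucine-rich proteoglycans, which coat collagen fibrils, were mostly higher. Of 5 tested, 4 rose and Fmod fell (log2 -1.12, SE 0.44), with a median of 2.37. These shares were 80% and 20%, beside 19.0% and 17.2% over all genes. The call of Fmod was lost in 9 alternatives, among them DESeq2, no replicate block and the fits without library 1.2, 2.1, 2.2 or 2.3, and in Stroma1 alone its value was 0.56. Dcn, decorin, was at 6542 and 9393 CPM in Pro-osteoblast and 409 and 629 in Pre-osteoblast/chondrocyte, 15.3-fold apart (log2 3.94, SE 0.24). Lum, lumican, was higher by log2 2.37 (SE 0.23) and Omd, osteomodulin, by 2.99 (SE 0.51). Bgn, biglycan, was higher by 0.999 (SE 0.20), but on plain totals its value was -0.10.

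Matricellular genes, whose products tune how cells meet the matrix, went mainly the other way: 4 of 15 were higher and 8 lower. These shares were 26.7% and 53.3%, beside 19.0% and 17.2% over all genes, and the median was -2.70. Tnc, tenascin C, stood at 8047 and 7857 CPM in Pre-osteoblast/chondrocyte and 350 and 212 in Pro-osteoblast, 30.6-fold lower in the latter (log2 -4.94, SE 0.24). Ctgf, connective tissue growth factor, was at 2012 and 1521 against 58.3 and 29.0 (log2 -5.52, SE 0.30). Postn, periostin, was at 833 and 679 against 83.2 and 35.0 (log2 -3.94, SE 0.33). These 3 genes separated the classes in both samples by wide gaps. Within the CCN family, Wisp2 was lower, with 3 counts in Pro-osteoblast against 37 and a ratio of 57.5 (counting interval 18.2 to 291), while Wisp1 was higher, at 957 and 1098 against 94.3 and 85.7 (log2 3.56, SE 0.32). Thbs1, thrombospondin 1, was higher as well, at 599 and 875 against 15.7 and 28.6 (log2 4.99, SE 0.43).

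**Figure D4:**
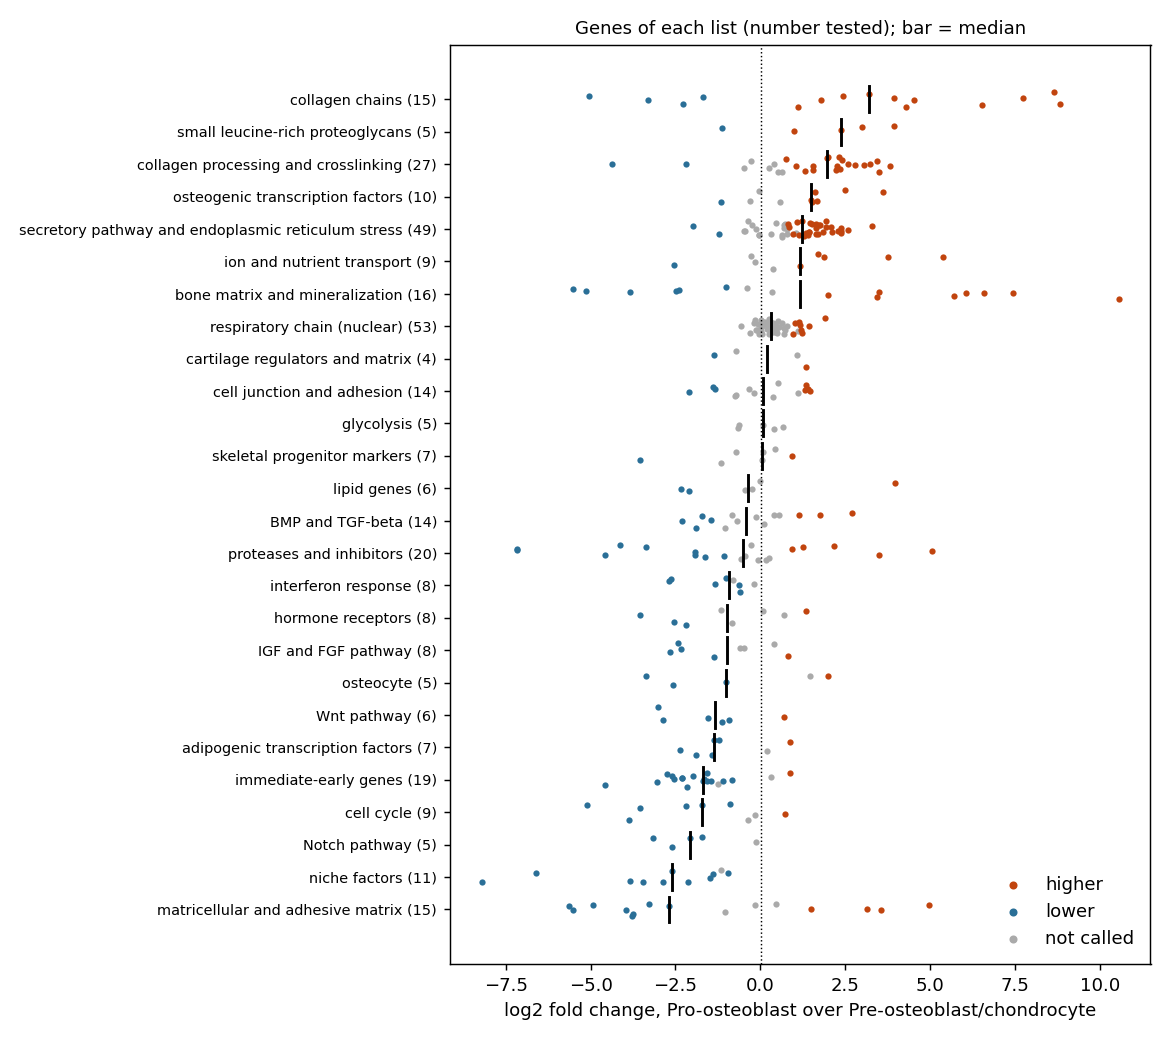
Log2 fold change of every tested gene of 26 lists, ordered by median (black bar), with the number tested in brackets; the dotted line is the median of all 2116 genes. Collagen chains have the highest median (3.19) and matricellular genes the lowest (-2.70), and both hold genes called in each direction.

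Collagenase 3, a matrix-cutting enzyme, was lower in Pro-osteoblast. Mmp13 (chr9:7272514-7283331) stood at 19803 and 19594 CPM in Pre-osteoblast/chondrocyte and at 133 and 138 in Pro-osteoblast, 144-fold lower in the latter (log2 -7.17, SE 0.29, adjusted p = 4.1e-112). It was high in each library of Pre-osteoblast/chondrocyte, between 19987 and 27361 CPM of the counts other than type I collagen. On that scale it was at most 244 in any library of Pro-osteoblast. The few Pro-osteoblast counts were concentrated: 11 of 16 in Stroma1 lay in 1 cell. Of the 20 proteases and inhibitors tested, 5 were higher and 9 lower, with a median of -0.52. These shares were 25% and 45%, beside 19.0% and 17.2% over all genes.

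Other proteases and inhibitors shared the direction of Mmp13. Mmp14, the membrane protease that activates it, was at 314 and 479 in Pre-osteoblast/chondrocyte and 16.6 and 51.9 in Pro-osteoblast (log2 -3.38, SE 0.42). The inhibitor Timp3 was at 314 and 400 against 0 and 20.5 (log2 -4.56, SE 0.50), and the protease inhibitor Serpine2 at 9037 and 6915 against 624 and 338 (log2 -4.14, SE 0.23). Each of the 3 was separate between the classes in both samples. Mmp9, a gelatinase typical of osteoclasts, was at 393 and 700 against 0 and 4.83 (log2 -7.18, SE 0.55), but 76 of its 98 Stroma2 counts in Pre-osteoblast/chondrocyte lay in 1 cell. Of the other osteoclast markers, Ocstamp, Atp6v0d2 and Oscar had 0 counts there and Acp5 had 0 and 2, while Ctsk lay between 162 and 176 CPM of all counts in the 4 sums. After TMM scaling Ctsk was called higher in Pro-osteoblast (log2 0.93, SE 0.38), a call lost in 11 alternatives, among them DESeq2 and the fits without any 1 library, and on plain totals its value was -0.18. Serpinf1, which encodes the bone factor PEDF, went the opposite way, at 4087 and 4818 in Pro-osteoblast against 471 and 350 (log2 3.50, SE 0.24).

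Genes listed here as niche factors were mostly lower in Pro-osteoblast. The list is broad: osteoclast factors, a Wnt antagonist and Spp1 of the bone matrix list are in it. The calls of its members Cxcl12 and Kitl were lost in some alternatives. Of 11 tested, 10 were lower (90.9%, beside 17.2% over all genes), including Spp1, and none was higher. Lepr, the leptin receptor, was not called (log2 -1.14, SE 0.51, edgeR adjusted p = 0.068), though it was lower with a call in 6 alternatives, plain totals among them. Over the list the median was -2.60, and DESeq2 called 4 lower. Tnfsf11, or RANKL, which drives osteoclast formation, had 28 counts in Pre-osteoblast/chondrocyte, at 173 and 121 CPM, and 0 in Pro-osteoblast, at least 43.5-fold lower. Csf1, the other main osteoclast factor, was at 314 and 493 in Pre-osteoblast/chondrocyte and 58.3 and 32.6 in Pro-osteoblast (log2 -3.46, SE 0.43). Both factors were thus separate between the classes, although DESeq2 did not call Tnfsf11. Angpt4, an angiopoietin, had 2 counts in Pro-osteoblast against 60, a ratio of 140 with a counting interval from 37.0 to 1181. Kitl, stem cell factor, was at 141 and 100 against 83.2 and 25.3, and its call (log2 -1.48, SE 0.49, adjusted p = 0.0089) was lost in 6 alternatives, including DESeq2 and the fits without library 1.2, 2.1 or 2.2. Jag1 (log2 -2.60, SE 0.53), a Notch ligand, and Sfrp4 (-2.87, SE 0.55), a secreted Wnt antagonist, were lower too, but DESeq2 did not call Jag1.

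Cxcl12, the chemokine that retains blood stem cells, overlapped between the classes. It stood at 3112 and 2564 CPM in Pre-osteoblast/chondrocyte and at 2630 and 844 in Pro-osteoblast. The call (log2 -0.96, SE 0.20, adjusted p = 1.5e-05) was lost with DESeq2 and with no replicate block. In Stroma1, 4 of 42 Pro-osteoblast cells carried 90.8% of its counts. As CPM of the counts other than type I collagen, Pro-osteoblast held 4580 in library 1.1 against 1181 in library 1.2. Cxcl12 is itself 1 of the 6 markers of adipo-lineage reticular cells. The other 5 summed to 395 and 132 CPM of all counts in Pro-osteoblast and 507 and 401 in Pre-osteoblast/chondrocyte, and they did not go 1 way. Lepr and Kitl, which are also in the niche list, and Hp were higher in Pre-osteoblast/chondrocyte in both samples, whereas Lpl was higher in Pro-osteoblast, at 139 and 33.1 against 18.1 and 16.7, and so was Adipoq, at 48.1 and 9.65 against 36.2 and 0. Their part in the niche result was not tested. Of 7 genes tested from a list headed adipogenic transcription factors, 5 were lower and 1, Klf4, was higher. These shares were 71.4% and 14.3%, beside 17.2% and 19.0% over all genes. The list is broad, with Foxc1 and Ebf genes in it, and its heading does not give the role of each gene in marrow. Foxc1 differed by log2 -1.89 (SE 0.42), Ebf3 by -2.37 (SE 0.55) and Cebpb by -1.23 (SE 0.27). DESeq2 called none of the 7.

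Signalling genes were mostly lower in Pro-osteoblast where they were called. In the Wnt list 5 of 6 were lower and 1 higher (83.3% and 16.7%, beside 17.2% and 19.0% over all genes). Wif1, which binds Wnt ligands and blocks them, was at 1446 and 1629 CPM in Pre-osteoblast/chondrocyte and 300 and 146 in Pro-osteoblast, 8.04-fold lower (log2 -3.01, SE 0.24). Ctnnb1, the beta-catenin that carries the Wnt signal, was the 1 higher gene (log2 0.69, SE 0.22), and that call ended without type I collagen, without library 1.2 and with DESeq2, while on plain totals its value was -0.41. In the Notch list 4 of 5 were lower (80%, beside 17.2% over all genes) and none higher, and DESeq2 called none. The receptor Notch3 was at 110 and 100 against 16.6 and 9.66 (log2 -3.17, SE 0.54), and the target genes Hes1 (-1.72, SE 0.51) and Hey1 (-2.08, SE 0.52) were lower by smaller steps. All 3 rested on at most 60 counts in each class, and the call of Hes1 was also lost without library 1.2 or 2.2.

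The BMP and TGF-beta list had 3 of 14 higher and 4 lower, 21.4% and 28.6% beside 19.0% and 17.2% over all genes, and on plain totals 1 and 8. Bambi, a pseudoreceptor that dampens BMP signals, was at 241 and 428 in Pro-osteoblast and 62.9 and 50.0 in Pre-osteoblast/chondrocyte (log2 2.71, SE 0.45), and the secreted BMP-binding protein gene Fstl1 was lower (log2 -1.73, SE 0.27). In the IGF and FGF list 1 of 8 was higher and 4 lower (12.5% and 50%, beside 19.0% and 17.2% over all genes). Igfbp4, an inhibitor of insulin-like growth factor, was at 1509 and 1836 in Pre-osteoblast/chondrocyte and 699 and 187 in Pro-osteoblast (log2 -2.33, SE 0.23), and its relative Igfbp7 at 582 and 729 against 200 and 95.4 (log2 -2.42, SE 0.29). In Stroma1, 46 of the 84 Igfbp4 counts of Pro-osteoblast lay in 1 cell.

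Of 8 hormone receptors tested, 1 was higher and 3 lower, 12.5% and 37.5% beside 19.0% and 17.2% over all genes. On plain totals none was higher and 6 were lower, and with DESeq2 none was higher and 2 were lower. Pth1r, the receptor for parathyroid hormone, was at 400 and 414 CPM in Pro-osteoblast and 157 and 164 in Pre-osteoblast/chondrocyte (log2 1.34, SE 0.33), a call lost on plain totals, with DESeq2 and without library 1.2. Vdr, the vitamin D receptor, was at 133 and 181 in Pro-osteoblast and 676 and 793 in Pre-osteoblast/chondrocyte, 4.58-fold lower (log2 -2.19, SE 0.27). The receptors for these hormones of calcium balance therefore lay on opposite sides. Pdgfrb, a receptor of mesenchymal progenitors, was at 597 and 300 in Pre-osteoblast/chondrocyte and 58.3 and 22.9 in Pro-osteoblast (log2 -3.56, SE 0.43). Esr1, the oestrogen receptor, was lower by 2.55 on the log2 scale (log2 -2.55, SE 0.51), from 17 and 23 counts, and was not called by DESeq2.

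Junction genes and carriers were called in both directions. Gja1, the connexin that couples bone cells, was at 2006 and 2877 against 817 and 1036 (log2 1.40, SE 0.21), and the adhesion genes Cdh2 (1.31, SE 0.25, a call lost without library 1.2) and Cadm1 (1.46, SE 0.28) were higher too. Of 14 junction genes tested, 4 were higher and 3 lower, 28.6% and 21.4% beside 19.0% and 17.2% over all genes, and on plain totals none was higher and 8 were lower. Of 9 genes of ion and nutrient transport, 5 were higher and 1 lower (55.6% and 11.1%, beside 19.0% and 17.2% over all genes). On plain totals, however, the counts were 2 and 2, and with DESeq2 2 and none. Slc13a5, a citrate carrier, had 222 counts in Pro-osteoblast and 1 in the other class, a ratio of 47.7 with a counting interval from 8.46 to 1890. Slc36a2, an amino acid carrier, was at 325 and 317 against 110 and 92.9 (log2 1.69, SE 0.40), and lost its call on plain totals and with DESeq2.

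Immediate-early genes, which answer within minutes to growth signals or to handling of cells, were lower in Pro-osteoblast. Of 19 tested, 16 were lower and only Klf4 was higher (log2 0.89, SE 0.29), with a median of -1.68. These shares were 84.2% and 5.26%, beside 17.2% and 19.0% over all genes. DESeq2 called 8 lower and none higher. The call of Klf4 was lost without type I collagen (adjusted p = 0.059), with DESeq2 (adjusted p = 0.32), with no replicate block and without library 1.1, and on plain totals its value was -0.22. Fos, a subunit of the AP-1 factor, was at 466 and 479 CPM in Pro-osteoblast and 2860 and 3457 in Pre-osteoblast/chondrocyte, 6.76-fold lower (log2 -2.76, SE 0.22). Egr1 was at 125 and 136 against 770 and 779 (log2 -2.54, SE 0.27). Socs3 (-3.04, SE 0.27), Zfp36 (-2.31, SE 0.27), Fosb (-2.61, SE 0.36) and Nr4a1 (-4.57, SE 0.62) were lower by log2 steps that ran from the smallest of these, Zfp36, to the widest, Nr4a1. The mitochondrial share of counts, given above, and depth per cell moved with these genes, and their part in this result was not tested. Of 8 interferon response genes 6 were lower (75%, beside 17.2% over all genes), among them Ifitm3 (log2 -2.63, SE 0.33), and DESeq2 called 1.

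Few genes of energy supply and protein synthesis were called. None of 5 glycolysis genes passed edgeR's test, 1 had an unadjusted p under 0.05, and DESeq2 called none, while edgeR called 1 lower without type I collagen and 3 lower on plain totals. Of 53 nuclear genes of the respiratory chain, 8 were higher (15.1%, against 19.0% over all genes) and none lower, with a median of 0.32. Without type I collagen 4 were higher, with DESeq2 1, and on plain totals none was higher and 14 were lower. Ndufa1, a complex I subunit, was among the 8 (log2 1.92, SE 0.34). Of 77 cytosolic ribosomal protein genes, 10 were higher, a smaller share than over all genes, and none lower (median 0.15). Of 12 genes encoded by mitochondria, 1 was lower. In the cell cycle list 6 of 9 were lower and 1, H2afz, was higher (66.7% and 11.1%, beside 17.2% and 19.0% over all genes). The call of H2afz was lost in 12 alternatives, among them DESeq2 and the repeat without type I collagen. Ccnd1, cyclin D1, was at 330 and 271 in Pre-osteoblast/chondrocyte and 8.32 and 22.9 in Pro-osteoblast (log2 -3.88, SE 0.55), and Stmn1, a tubulin-binding protein of dividing cells, differed by log2 -3.54 (SE 0.55), a call lost with DESeq2. Ube2c, a mitotic gene, rested on 2 counts against 21, and 10 of the 11 Stroma1 counts of Pre-osteoblast/chondrocyte lay in 1 cell. Of 6 lipid genes 1 was higher and 2 lower (16.7% and 33.3%), and of 5 osteocyte genes 1 and 3 (20% and 60%). Of 7 skeletal progenitor markers the counts were 1 and 1 (14.3% and 14.3%). Over all genes tested these shares were 19.0% and 17.2%. With DESeq2, 1 lipid gene was higher and 2 were lower, while no osteocyte gene or progenitor marker was higher and 1 of each was lower.

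Of 25 cartilage genes counted here, only 4 had enough counts to be tested, and 1 was called higher and 1 lower in Pro-osteoblast. So few tested genes cannot show whether Pre-osteoblast/chondrocyte is cartilage-like. Pth1r was higher and the growth plate receptor Fgfr3 lower in Pro-osteoblast, the latter with a call (log2 -1.37, SE 0.51, adjusted p = 0.022) that was lost in 6 alternatives, among them those without library 2.1 or 2.2. Col2a1, the main collagen of cartilage and part of the collagen list, was higher in Pro-osteoblast, at 541 and 1305 CPM against 236 and 35.7 (log2 3.19, SE 0.33). Its counts sat in few cells: 8 of 42 and 78 of 305 Pro-osteoblast cells had any, and 4 cells held 83.1% of the Stroma1 counts. DESeq2 did not call it.

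Outside the lists, the genes named for the widest differences were mostly at or near 0 in 1 class, which a choice by fold change favours. Prss35 (257 counts in Pro-osteoblast), Fxyd6 (241), Nnat (218), Sema3d (212), Mtss1 (142) and Aldh1l2 (112) had 0 counts in Pre-osteoblast/chondrocyte, and were at least 18.4, 17.2, 15.6, 15.2, 10.2 and 8.01-fold higher in Pro-osteoblast. DESeq2 called Prss35, Mtss1 and Aldh1l2 and did not call Fxyd6, Nnat and Sema3d. Nnat, an imprinted gene, overlaps Blcap on the opposite strand, and no source used here says whether the counting used strand. Cpz, a carboxypeptidase that binds Wnt proteins, had 1088 counts against 1, a ratio of 234 (counting interval 41.8 to 9232), and Entpd3, which splits extracellular nucleotides, had 495 against 1, a ratio of 106 (18.98 to 4205).

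On the other side, Ccdc3, a secreted protein gene, had 19 counts in Pre-osteoblast/chondrocyte and 0 in Pro-osteoblast, at least 29.5-fold lower, and was not called by DESeq2. Cd55, which protects cells from complement, had 23 counts against 1, a ratio of 107 (counting interval 17.4 to 4414). B4galnt1, a ganglioside enzyme, had 14 against 1, and Fam20a, a secretory pathway pseudokinase, had 29 against 3. Olfml2a had 43 against 3, a ratio of 66.8 (counting interval 21.4 to 336), and Podnl1, a leucine-rich proteoglycan, had 43 against 4. These genes of low count were chosen as being among the 15 lowest called with the same direction in both samples. Counts in both Pre-osteoblast/chondrocyte sums and next to none in Pro-osteoblast follow from that choice. Limch1, an actin-binding protein, was better covered, at 739 and 707 CPM against 24.97 and 16.9, 37.8-fold lower in Pro-osteoblast (log2 -5.24, SE 0.39), and Steap4, a metal reductase, was at 346 and 493 against 16.6 and 10.9 (log2 -5.22, SE 0.51).

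Levels in the class named Osteoblast progenitor, by its name an earlier stage, show which side each gene shares with it. As CPM of the counts other than type I collagen, Osteoblast progenitor held Tnc at 7486 and 8243, Ctgf at 1144 and 1498, Serpine2 at 4528 and 4049 and Limch1 at 1051 and 1079, all on the side of Pre-osteoblast/chondrocyte. For Spp1, by contrast, it held 3882 and 5996 against 77176 and 80975 in Pre-osteoblast/chondrocyte, and for Mmp13 3831 and 4896 against 23775 and 23708. The Pre-osteoblast/chondrocyte sums were thus the highest of these 3 classes for Spp1 and Mmp13. The small class Pro-chondrocyte, of 4 and 10 cells, held more Spp1, at 210273 and 204319, and held Mmp13 at 4586 and 27271, on either side of Pre-osteoblast/chondrocyte. It also held more Dmp1, at 23389 and 13249. Dmp1 was at 8.44 and 10.4 in Osteoblast progenitor, below both classes compared. Bglap stood at 21.1 and 10.4, Col11a2 at 0 and 13.0 and Cthrc1 at 4.22 and 2.60, near the low values of Pre-osteoblast/chondrocyte. Cxcl12 stood at 48885 and 43219, far above both classes. These levels are a description and were not tested.

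Single cells were compared after thinning each cell to 500 counts, and the genes of wide difference stood apart there while some called genes did not. The 500 counts include type I collagen, which took 39.0% and 42.7% of Pro-osteoblast counts against 4.02% and 3.36% in Pre-osteoblast/chondrocyte. Fewer of the 500 were thus left for other genes in Pro-osteoblast, so the thinned shares are on the scale of plain totals. Bglap was found in 69.0% (exact 95% interval 52.9 to 82.4) and 68.2% (62.6 to 73.4) of Pro-osteoblast cells, and in 0 of 25 and 7.58% (2.51 to 16.8) of Pre-osteoblast/chondrocyte cells. Unthinned, these shares were 85.7%, 88.2%, 0 and 16.7%. In the stromal class MSC, which should lack osteocalcin, 0 of 502 and 0.245% of cells had a count. Mmp13 was found in 96.0% and 83.3% of Pre-osteoblast/chondrocyte cells and in 2.38% and 2.62% of Pro-osteoblast cells, below its share in MSC (16.7% and 17.7%). Unthinned, Mmp13 was found in 96.0%, 86.4%, 11.9% and 8.85% of these cells. For Ibsp the intervals overlapped, with 47.6% (32.0 to 63.6) and 47.9% (42.1 to 53.6) in Pro-osteoblast and 64.0% (42.5 to 82.0) and 60.6% (47.8 to 72.4) in Pre-osteoblast/chondrocyte, and its share in MSC was higher still, at 75.3% and 78.8%. Dmp1 was found in 2.38% (0.0603 to 12.6) and 12.8% (9.25 to 17.1) of Pro-osteoblast cells and in 32.0% (14.95 to 53.5) and 27.3% (17.03 to 39.6) of Pre-osteoblast/chondrocyte cells. Unthinned, Dmp1 shares were 35.7%, 38.4%, 48.0% and 37.9%, so that in Stroma2 the difference showed only after thinning. Pth1r, called higher in Pro-osteoblast, was found in 7.14% (1.498 to 19.5) and 13.1% (9.54 to 17.4) of thinned Pro-osteoblast cells and in 16.0% (4.54 to 36.1) and 12.1% (5.38 to 22.5) of thinned Pre-osteoblast/chondrocyte cells. Sp7 was found in 11.9% and 11.8% against 3 of 25 cells and 3.03%. Neither gene was separate between the classes in thinned cells, where both were rare; unthinned, Pth1r was found in 54.8% and 53.8% against 28.0% and 24.2%, and Sp7 in 61.9% and 49.8% against 24.0% and 19.7%. The intervals cover counting error only and take each cell as independent. The 42 and 305 Pro-osteoblast cells held 33 and 209 distinct barcodes, so their intervals may be too narrow.

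**Figure D5:**
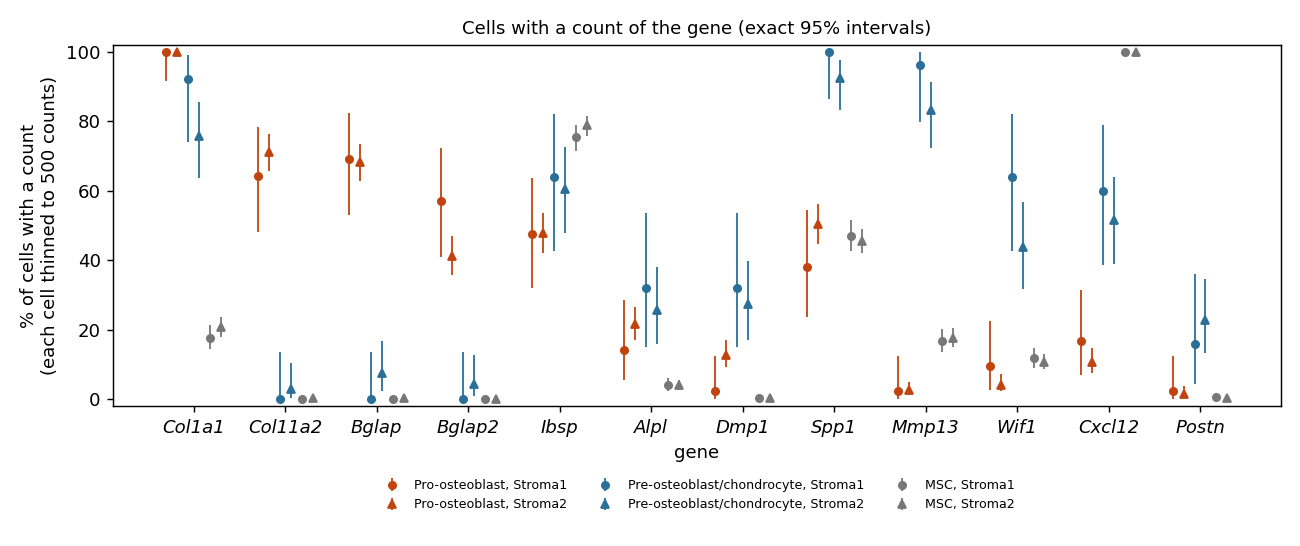
Percent of cells with at least 1 count of a gene after each cell was thinned to 500 counts, with exact 95% intervals; colours give the class, circles Stroma1 and triangles Stroma2. Bglap and Col11a2 are found mainly in Pro-osteoblast cells, Spp1, Mmp13 and Wif1 most often in Pre-osteoblast/chondrocyte cells, and Ibsp in a large share of all 3 classes.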

How the data were processed

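Per the file headers, the deposited table gives a count per gene and barcode, a mitochondrial fraction, and the authors' sample, library, filter, class, fate probability and pseudotime columns. Per the submitters' processing notes, the authors used Bowtie 1.1.1 and GRCm38; no source used here gives the counting tool, the use of molecular identifiers or strand. The 25289 gene columns added up to the deposited total in all 15028 barcodes. Fractions deposited by the authors were used as given. Counts were summed per class and sample and tested with edgeR 4.0.16 (R 4.3.3: filterByExpr with a minimum count of 10, totals over the genes kept, TMM, quasi-likelihood test with terms for class and sample, Benjamini-Hochberg over all genes tested). DESeq2 1.42.0 was an alternative. Each standard error is the log2 fold change over the square root of F. The 2 classes of a sample come from the same sample, hence the block. On data simulated with the same sums, edgeR called 95.2% and 100% of genes lowered and raised 4-fold. It called 45.5% and 42.5% of those changed 2-fold, and 0.248% of unchanged genes. The simulation gave every gene the same spread, estimated from these data, and left 1616 of 1782 tested genes unchanged. It therefore cannot show how often real calls are false where genes differ in spread. A count of 0 was set at 3 counts over the class for bounds. No doublet caller was run, and the authors' filter was used as deposited. The members and the 26 gene lists (707 of 717 genes in the table, 337 tested) were chosen with earlier results of these data known. Named genes are the 15 highest and 15 lowest called, up to 6 called per list by p, and preset genes; exceptions named within a list were chosen after their values were seen. A gene that the rule takes is not reported here by name. Promoters are from RefSeq (GRCm38.p6), gene positions and transcripts from GENCODE vM21 on the same build. Samples, libraries, shared barcodes, cells of high counts, filters and scaling were varied as alternatives.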

Additional observations from a re-analysis of the deposited data

Results flagged for a closer look

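Osteocalcin counts were also present in barcodes that the comparison did not use, above the limit that a count of 0 allows. Bglap stood at 28.4 CPM in the 585 Stroma1 barcodes that did not pass the authors' filter and at 39.0 in the 1675 of Stroma2. In barcodes with no filter label it stood at 135 in Stroma1 (2232 barcodes) and 139 in Stroma2 (7689 barcodes). Passing cells of all classes together held 629 and 1470 CPM.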

How the results depend on the processing

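The 401 higher and 364 lower genes became 130 and 1059 on plain totals, and 149 and 116 with DESeq2. They became 223 and 210 without library 1.2, and 78 and 80 when each cell was thinned to 500 counts, where 348 genes could be tested. Higher genes numbered 255 without library 1.1, and lower genes 199 with no filter on low counts. With no replicate block, which leaves out the pairing of classes within a sample, the counts were 369 and 331. Both counts stayed within 1.5 times of the first under RLE factors (395 and 374), without mitochondrial genes, without cells of high counts, without library 2.1, 2.2 or 2.3, with each barcode once, with 6 classes in the fit (561 and 513 of 6229 genes) and at an adjusted p under 0.01 (329 and 286). Leaving out a whole sample leaves no residual degree of freedom and so no count. Of 121 named genes called, 77 kept their call in every fit that tested them and 101 in every fit other than plain totals and DESeq2. Without replicate 2, 44 of the 121 moved by more than the SD of the 2 samples' values and 1, Fmod, changed sign (0.56, against -2.23 without replicate 1); without replicate 1, none did either. Among the named genes, values that changed sign were Alpl (-0.77), Bgn (-0.10), Ctnnb1 (-0.41), Ctsk (-0.18), H2afz (-0.36) and Klf4 (-0.22) on plain totals, Ctnnb1 when thinned (-0.0015) and Runx2 without replicate 2 (0.81, against -0.80 without replicate 1). Near 0 and not called, Hsp90b1 turned positive with no filter (0.13), without library 1.2 (0.13) or 2.3 (0.044), with each barcode once (0.019) and without replicate 2 (0.016, against -0.061 without replicate 1), and Hspa5 with no filter (0.12), without library 1.2 (0.037) and without replicate 2 (0.13, against -0.16). The cause was not tested. Precision is limited by the 25 and 66 Pre-osteoblast/chondrocyte cells and their 55218 and 119724 counts.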
